A study of Mus musculus with 9 samples.

Results

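The 32 genes described here make cholesterol, control its synthesis and move it through and out of the cell. They were taken by symbol from a table of 43629 genes measured in RAW264.7 cells: 17 sterol synthesis enzymes, and 15 genes of SREBP regulation, LXR-driven efflux, and intracellular transport and storage. Of these, 31 had enough reads to be tested, a normalised count of 10 or more in 3 or more libraries; the exception was Ch25h. The members do not cover every enzyme of the pathway.

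RAW264.7 is a mouse macrophage line transformed by Abelson murine leukaemia virus, so the results come from 1 cell line. RNA of 9 libraries was sequenced, 3 from control cells, 3 from cells given lipopolysaccharide (LPS, a component of the bacterial outer membrane that activates macrophages) and 3 from cells given LPS and sodium butyrate (NaBu, a salt of a short-chain fatty acid that inhibits histone deacetylases). The series describes the NaBu as a pretreatment, but the labels give neither dose nor time, and no library of NaBu without LPS was analysed here, so what NaBu alone does cannot be told apart from its action in LPS-treated cells. The replicates are called biological without a statement that they were separate cultures, so the p-values cover only the scatter among these libraries, some of which may be technical.

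Cholesterol is built from acetyl-CoA by way of mevalonate, farnesyl diphosphate, squalene and lanosterol, which a series of enzymes of the endoplasmic reticulum then trims to cholesterol. The SREBP transcription factors switch these enzymes on: when membrane sterol is low, SCAP escorts SREBP to the Golgi, where it is cut and released, and when sterol is high, the INSIG proteins hold SCAP and SREBP back. The nuclear receptor LXR answers the opposite state, excess sterol, by raising exporters such as ABCA1 and ABCG1, a balance for which macrophages are well known because they take up cholesterol-rich particles and debris.

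The measure was a normalised count, reads assigned to a gene divided by a size factor of the library. Libraries held 37.6 to 64.4 M reads, 44.9 to 57.2 M in control, 37.6 to 52.3 M with LPS and 39.4 to 64.4 M with LPS+NaBu. The 8 macrophage markers analysed here were all expressed in every library, but their summed normalised count was 470350 to 488040 in control, 643362 to 680080 with LPS and 213525 to 231355 with LPS+NaBu, and all 8 were called lower with LPS+NaBu than in either other group. Of 6 fibroblast markers, 4 were tested and rose with LPS+NaBu, although their list summed to only 268 to 296 there, against 6.36 to 12.1 in control and 13.0 to 18.8 with LPS. Both B cell markers also rose, to a sum of 35.7 to 46.8. The hepatocyte markers Alb, Cyp2e1 and Ttr were at 0 in all 9 libraries. The 3 endothelial markers summed to 4.02 to 10, 24.6 to 59.3 and 40.6 to 61.7 in control, LPS and LPS+NaBu, the 2 adipocyte markers to at most 4, 2.01 and 51.3, the 4 epithelial markers to at most 0, 0 and 13.1, and the 2 T cell markers to at most 6.36 in any library. In bulk RNA, fewer cells of a type and less RNA per cell cannot be told apart, and the part of these marker shifts in the results below was not tested.

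The sterol synthesis genes mostly fell with LPS, and with NaBu added they were called in both directions at shares near those of all genes. The 3 comparisons below share libraries, so their counts are not independent of each other. With LPS against control, 14 of the 17 enzymes were called lower, 1 higher and 2 neither, at a limma adjusted p under 0.05, where 30.8% of all 14808 tested genes were called lower and 25.2% higher. The median log2 change of the 17 was -0.45, against -0.05 over all genes. With LPS+NaBu against LPS, 7 enzymes rose and 8 fell, where 40.2% of all genes rose and 37.8% fell, so these counts lie near the shares of all genes and are no result about the enzymes. Against control, LPS+NaBu left 5 enzymes higher and 10 lower, where 40.9% of all genes were higher and 35.1% lower, with a median of -0.41 against 0.09 over all genes. Hmgcs1, Cyp51, Nsdhl and Ebp were lowered most by the addition of NaBu, and Dhcr7, Tm7sf2, Pmvk, Fdft1 and Mvk were raised most.

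The 14 tested genes of regulation and handling were counted in the same way. With LPS against control, 9 fell and 3 rose, beside 30.8% and 25.2% of all tested genes, with a median log2 change of -0.27 against -0.05 over all genes. With LPS+NaBu against LPS, 5 rose, 3 fell and 6 passed in neither direction, where 40.2% of all genes rose and 37.8% fell. With LPS+NaBu against control, 6 rose and 6 fell, where 40.9% of all genes were higher and 35.1% lower, so the counts of genes that rose with NaBu, over LPS or over control, lie near those of all genes and are no result about these members. Taking all 31 tested members, the libraries of the groups did not overlap for 27 members with LPS against control, where this held for 60.6% of all tested genes. They did not overlap for 22 members with LPS+NaBu against LPS, where it held for 79.0% of all genes, and for 27 members with LPS+NaBu against control, where it held for 79.4%. The median absolute log2 change of the members was 0.45, 0.49 and 0.60 in the 3 comparisons in that order, against 0.36, 0.74 and 0.69 over all genes.

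The counts in the NaBu comparison depend on how libraries are scaled. LPS libraries had the largest summed normalised count, and scaling all libraries to the same sum moved every log2 change by -0.23 with LPS against control, by 0.28 with LPS+NaBu against LPS and by 0.05 with LPS+NaBu against control. Over all tested genes it changed the calls with LPS from 3739 higher and 4568 lower to 2266 and 7078, and those with LPS+NaBu against LPS from 5956 and 5602 to 7431 and 4128. Under that scaling 8 sterol synthesis enzymes rose and 5 fell with LPS+NaBu against LPS, in place of 7 and 8. Of the regulation and handling genes, 11 rose and 2 fell under it, in place of 5 and 3. Quantile normalisation gave 10 and 2 for the same genes, where 5886 of all tested genes rose and 6030 fell. With edgeR on the recovered reads the counts were 5 and 6, where 5455 of all tested genes rose and 6166 fell.

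**Figure D1:**
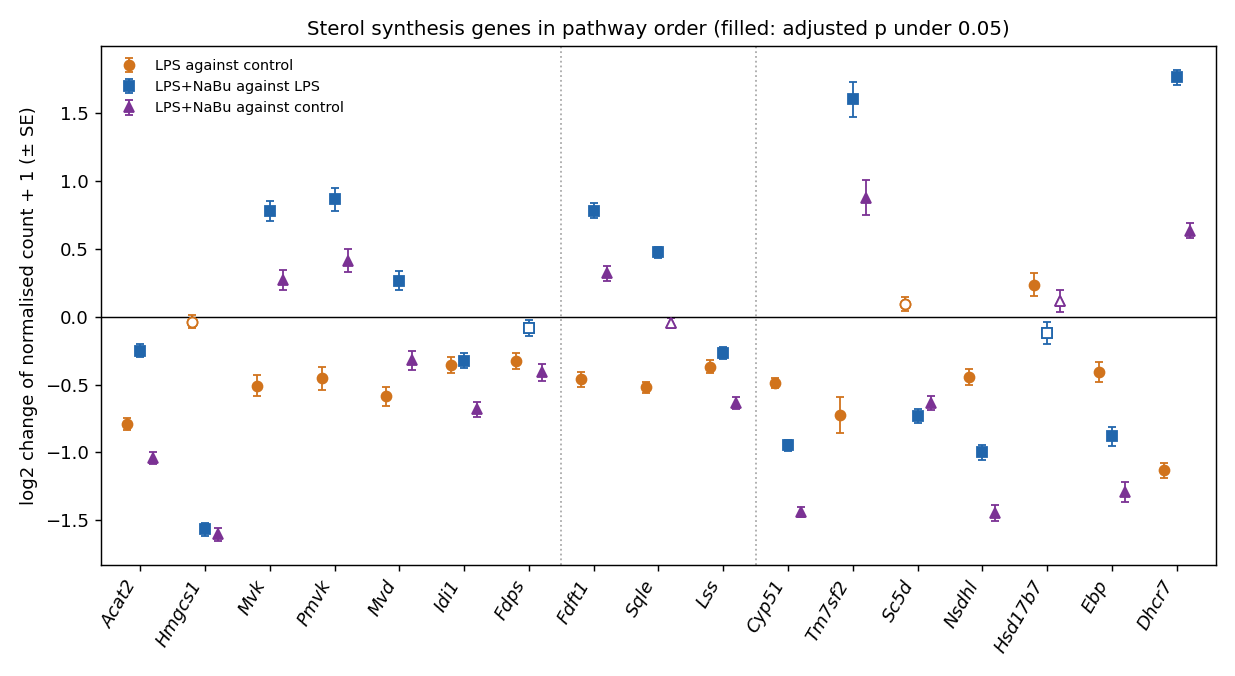
Log2 change of the normalised count + 1 (vertical axis, ± SE) of the 17 sterol synthesis genes, grouped by stage of the pathway. Within the last stage the genes do not stand in the order of their reactions. Symbols show LPS against control (orange circles), LPS+NaBu against LPS (blue squares) and LPS+NaBu against control (purple triangles), with 3 libraries a group. Open symbols did not pass an adjusted p of 0.05, and dotted lines part the mevalonate, squalene and lanosterol, and later stages. Orange points lie mostly below 0 while blue squares run from -1.57 for Hmgcs1 to 1.76 for Dhcr7. The blue squares of Acat2, Lss and Fdps turn to 0.026, 0.0075 and 0.19 when libraries are scaled to the same sum, where Fdps is called higher.

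Promoter sequence is shown for 6 enzymes with large changes, 3 that fell from LPS to LPS+NaBu and 3 that rose, because sterol genes are classically driven by SREBP at sterol regulatory elements with the factor NF-Y at CCAAT boxes beside them. Each stretch is the 150 bases before the RefSeq start site (GRCm38.p6), read 5′ to 3′ on the gene's strand, and capitals mark a match to TCACNCCAC, a form of the sterol regulatory element, or to CCAAT, on either strand. The Hmgcs1 stretch is chr13:119690201-119690350 on the plus strand, Cyp51 is chr5:4104698-4104847 on the minus strand and Nsdhl is chrX:72918371-72918520 on the plus strand. The Mvk stretch is chr5:114444119-114444268 on the plus strand and Tm7sf2 is chr19:6067851-6068000 on the minus strand. Dhcr7 has 3 listed start sites, and the stretch before the third, chr7:143830064-143830213 on the plus strand, was chosen because it holds CCAAT, which the windows at the other starts do not.
Hmgcs1: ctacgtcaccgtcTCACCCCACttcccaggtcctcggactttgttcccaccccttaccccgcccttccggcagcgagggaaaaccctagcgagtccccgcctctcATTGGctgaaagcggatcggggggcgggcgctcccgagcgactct
Cyp51: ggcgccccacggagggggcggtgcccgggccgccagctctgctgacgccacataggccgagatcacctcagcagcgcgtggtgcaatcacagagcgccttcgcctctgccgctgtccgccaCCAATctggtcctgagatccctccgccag
Nsdhl: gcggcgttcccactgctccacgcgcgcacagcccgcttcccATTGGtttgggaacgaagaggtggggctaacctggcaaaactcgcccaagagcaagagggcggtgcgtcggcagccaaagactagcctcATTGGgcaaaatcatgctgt
Mvk: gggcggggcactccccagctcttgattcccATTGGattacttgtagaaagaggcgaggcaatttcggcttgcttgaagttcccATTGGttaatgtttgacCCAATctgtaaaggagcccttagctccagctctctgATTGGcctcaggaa
Tm7sf2: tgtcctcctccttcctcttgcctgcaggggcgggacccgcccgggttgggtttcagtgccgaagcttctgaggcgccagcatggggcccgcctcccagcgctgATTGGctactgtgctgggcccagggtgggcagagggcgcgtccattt
Dhcr7: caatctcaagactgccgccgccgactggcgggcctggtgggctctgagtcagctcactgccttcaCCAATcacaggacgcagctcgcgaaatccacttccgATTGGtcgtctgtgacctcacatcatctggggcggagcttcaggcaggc

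A stretch was shown only from a window that holds CCAAT, so the CCAAT matches of the 6 stretches are no result. The genes other than Dhcr7 have 1 listed window each. Their 5 stretches hold at least 1 CCAAT match each, and that of Mvk holds 4. Pmvk, which rose more than Mvk with LPS+NaBu over LPS (log2 change 0.86 against 0.78), was not among the 6. Of the 6 stretches, TCACNCCAC was found in that of Hmgcs1, at bases -137 to -129. RefSeq windows of 300 bases, 250 before and 50 after the start, were given for 26 of the 32 members; those of Fdps, Fdft1, Sqle, Abcg1, Stard4 and Npc1 were not used. CCAAT was in 13 of 17 windows of sterol synthesis genes (76.5%) and in 9 of 19 windows of the other members (47.4%), against 37.4% of all 32851 windows in the table. At the level of genes, 13 of the 14 enzymes with a window held it in at least 1 window, Dhcr7 in 1 of its 3, and Acat2 was the exception. Beside them, 8 of the 12 other members with a window and 11096 of all 27025 genes with a window held it in at least 1. TCACNCCAC was in 1 of 17 and 0 of 19 windows, against 1.24% of all. The letters CACGTG were in 3 of 17 and 4 of 19 windows (17.6% and 21.1%), against 7.15% of all, and GGGCGG was in 14 of 17 and 13 of 19 (82.4% and 68.4%), against 35.7%. No match of TCACNCCAC overlapped one of CCAAT. A match describes the letters only, and none found says only that these letters are not in that window.

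The mevalonate stage runs from acetyl-CoA to farnesyl diphosphate. Acat2, which joins acetyl-CoA units into acetoacetyl-CoA, was the enzyme of this stage that LPS lowered most. Its normalised counts were 6975, 7008 and 6678 in control, 4114, 3918 and 3909 with LPS, and 3508, 3241 and 3289 with LPS+NaBu, so the 3 groups did not overlap. It fell 1.73-fold with LPS (log2 change -0.79 ± 0.05 SE, adjusted p = 9.1e-09), and was 2.06-fold lower with LPS+NaBu than in control (-1.04 ± 0.05, adjusted p = 2.24e-10). Its further fall from LPS to LPS+NaBu (-0.25 ± 0.05, adjusted p = 0.000244) turned to 0.026 (adjusted p = 0.624) when libraries were scaled to the same sum. The gene lies at chromosome 17, 13161367 to 13179641 (GRCm39), and shares 5.48% of its exon bases with Tcp1 on the other strand.

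Hmgcs1, which condenses acetoacetyl-CoA with acetyl-CoA to HMG-CoA, behaved differently. It read 9835, 10218 and 9691 in control and 10293, 9408 and 9315 with LPS, 2 groups that overlapped, with a log2 change of -0.04 ± 0.05 (adjusted p = 0.558). With LPS+NaBu it read 3305, 3120 and 3361, below every other library. That is 2.97-fold lower than LPS (log2 change -1.57 ± 0.05, adjusted p = 7.5e-12), the largest fall of any member in that comparison under the main scaling, and 3.04-fold lower than control (adjusted p = 6.86e-12). The gene lies at chromosome 13, 120151915 to 120170470 (GRCm39). The LPS comparison did call Hmgcs1 lower under scaling to the same sum and under quantile normalisation.

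The kinases that follow moved the other way with NaBu. Mvk, mevalonate kinase, read 1682, 1596 and 1623 in control, 1047, 1235 and 1171 with LPS, and 2057, 2080 and 1784 with LPS+NaBu. It fell 1.42-fold with LPS (log2 change -0.51 ± 0.08, adjusted p = 6.9e-05), rose 1.72-fold from LPS to LPS+NaBu (0.78 ± 0.08, adjusted p = 5.48e-07) and ended 1.21-fold above control (adjusted p = 0.0054). Pmvk, phosphomevalonate kinase, did the same in every library: 1077, 1006 and 1107 in control, 767, 880 and 691 with LPS, and 1430, 1451 and 1359 with LPS+NaBu, a rise of 1.81-fold over LPS (adjusted p = 5.74e-07). For both genes the LPS libraries were all below control and the LPS+NaBu libraries all above it.

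Mvd, Idi1 and Fdps, which make isopentenyl diphosphate, isomerise it and join it into farnesyl diphosphate, all fell with LPS, by 0.59, 0.36 and 0.33 on the log2 scale (adjusted p = 8.73e-06, 0.000109 and 0.000413). Mvd then rose 1.2-fold with NaBu (adjusted p = 0.0034) although the groups overlapped, with 3726, 4281 and 3754 under LPS against 5074, 4803 and 4265 under LPS+NaBu. Idi1 fell further, from 1473, 1384 and 1497 to 1149, 1123 and 1204 (log2 change -0.32, adjusted p = 0.000128), a call lost when libraries were scaled to the same sum. Fdps, at 6876, 7849 and 7453 with LPS and 7403, 7070 and 6442 with LPS+NaBu, had a log2 change of -0.08 that passed in neither direction (adjusted p = 0.208). At the same sum Fdps was called higher than with LPS (0.19, adjusted p = 0.00483), and with edgeR on the recovered reads it was called lower. All 3 genes remained below control with LPS+NaBu, with log2 changes of -0.32, -0.68 and -0.41. In the mevalonate stage 6 of 7 enzymes were called lower with LPS, beside 30.8% of all tested genes. With LPS+NaBu against LPS 3 were higher and 3 lower. These counts lie near the 40.2% and 37.8% of all genes and are no result about the stage.

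Squalene synthase and squalene epoxidase both fell with LPS and rose with NaBu. Fdft1, the synthase that commits farnesyl diphosphate to sterols, read 4394, 4355 and 4418 in control, 2963, 3296 and 3315 with LPS, and 5779, 5429 and 5225 with LPS+NaBu. The 3 groups did not overlap: it fell 1.38-fold with LPS (adjusted p = 8.16e-06), rose 1.72-fold from there with NaBu (log2 change 0.78 ± 0.05, adjusted p = 1.78e-08) and stood 1.25-fold above control (adjusted p = 0.000127). Fdft1 (chromosome 14, 63382189 to 63417027, GRCm39) shares 24.8% of its exon bases with Ctsb, cathepsin B, on the other strand. Whether counting used strand is not known, so reads there may not have been told apart. Ctsb had means of 214225 in control cells, 258016 with LPS and 160912 with LPS+NaBu, the reverse order to Fdft1.

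Sqle, the epoxidase and a rate-controlling step, read 15267, 15735 and 15893 in control, 11108, 10775 and 10807 with LPS, and 15651, 14814 and 14914 with LPS+NaBu. It fell 1.43-fold with LPS (log2 change -0.52 ± 0.04, adjusted p = 1.36e-07) and rose 1.39-fold with NaBu (0.47 ± 0.04, adjusted p = 1.36e-07). Its LPS+NaBu libraries overlapped those of control, with a log2 change of -0.05 ± 0.04 (adjusted p = 0.292). Lss, which cyclises the epoxide to lanosterol, fell with LPS from 5688, 5590 and 5881 to 4684, 4384 and 4238 and read 3684, 3713 and 3635 with LPS+NaBu. It was 1.56-fold lower than control there (log2 change -0.64 ± 0.05, adjusted p = 3.29e-08), while its fall from LPS to LPS+NaBu (-0.27 ± 0.05, adjusted p = 0.000138) became 0.0075 (adjusted p = 0.89) under scaling to the same sum.

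After lanosterol, neighbouring steps moved in opposite directions with NaBu. Cyp51, the demethylase that acts first on lanosterol, read 7408, 7568 and 7331 in control, 5250, 5242 and 5384 with LPS, and 2758, 2731 and 2737 with LPS+NaBu. It fell 1.41-fold with LPS (log2 change -0.49 ± 0.04, adjusted p = 1.81e-07) and a further 1.93-fold with NaBu (-0.95 ± 0.04, adjusted p = 8.45e-11), to 2.71-fold below control (adjusted p = 1.92e-12). The spread of its 3 LPS+NaBu libraries, 0.508% of their mean, was the smallest of any tested member in any group. Cyp51 (chromosome 5, 4123416 to 4154751, GRCm39) shares 21.1% of its exon bases with Akap9 on the other strand, whose own log2 change with NaBu over LPS was -0.18 (adjusted p = 0.0969).

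Tm7sf2, a sterol reductase that acts right after Cyp51, rose instead. It read 337, 340 and 348 in control, 191, 236 and 195 with LPS, and 728, 658 and 517 with LPS+NaBu, so all LPS+NaBu libraries were above all others. It fell 1.65-fold with LPS (log2 change -0.72 ± 0.13, adjusted p = 0.000368), rose 3.06-fold over LPS with NaBu (1.60 ± 0.13, adjusted p = 9.54e-08) and was 1.86-fold above control (adjusted p = 3.94e-05). Tm7sf2 (chromosome 19, 6112851 to 6118403, GRCm39) was the least abundant tested member per exon length in control, at 69.5 normalised counts per kb. It shares 10.8% of its exon bases with Vps51 on the same strand, which fell with NaBu over LPS (log2 change -1.13, adjusted p = 6.27e-09).

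Nsdhl and Ebp, a dehydrogenase of the sterol methyl groups and the sterol isomerase, both X-linked, followed Cyp51. Nsdhl read 2958, 2879 and 2756 in control, 2095, 2132 and 2079 with LPS, and 1040, 1129 and 987 with LPS+NaBu, a fall of 2.0-fold from LPS (log2 change -1.0 ± 0.06, adjusted p = 2.91e-09) and 2.72-fold from control (adjusted p = 8.25e-11). Ebp read 1625, 1603 and 1685 in control, 1200, 1177 and 1329 with LPS, and 648, 729 and 632 with LPS+NaBu, a fall of 1.84-fold from LPS (adjusted p = 9.95e-08) and 2.44-fold from control (adjusted p = 2.23e-09). Both had also fallen with LPS alone, by 0.45 and 0.41 on the log2 scale (adjusted p = 2.21e-05 and 0.000319). For each gene the 3 groups formed separate steps, control highest and LPS+NaBu lowest.

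Sc5d, a sterol desaturase, had the same calls as Hmgcs1. It read 3265, 3198 and 3031 in control and 3595, 3277 and 3262 with LPS (log2 change 0.09 ± 0.05, adjusted p = 0.152), then 1980, 2067 and 2058 with LPS+NaBu. It fell 1.66-fold from LPS with NaBu (-0.73 ± 0.05, adjusted p = 2.79e-08), and was 1.56-fold lower than control (adjusted p = 1.24e-07). Hsd17b7, a ketosteroid reductase of the same stage, was the only enzyme called higher with LPS (log2 change 0.24 ± 0.08, adjusted p = 0.0286), from 3194, 3398 and 2994 to 4106, 3425 and 3774. That call was lost in 7 of 21 other analyses, among them those without control library 1, control library 3, LPS library 1 or LPS library 3, and its adjusted p ranged from 0.00734 to 0.945 over the 21. With LPS+NaBu Hsd17b7 read 3373, 3141 and 3895 and passed against neither other group (adjusted p = 0.2 and 0.226).

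Dhcr7, the reductase that ends a branch of the pathway by making cholesterol, fell with LPS and was highest with LPS+NaBu. It read 2800, 2824 and 3135 in control, 1309, 1364 and 1319 with LPS, and 4751, 4418 and 4393 with LPS+NaBu. LPS lowered it 2.19-fold (log2 change -1.13 ± 0.06, adjusted p = 1.68e-09), the largest fall of any member with LPS, and NaBu raised it 3.4-fold from that level (1.76 ± 0.06, adjusted p = 7.5e-12), the largest rise of any member in that comparison. With LPS+NaBu it was 1.55-fold above control (0.63 ± 0.06, adjusted p = 2.44e-07). Dhcr7 lies at chromosome 7, 143376740 to 143402149 (GRCm39).

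**Figure D2:**
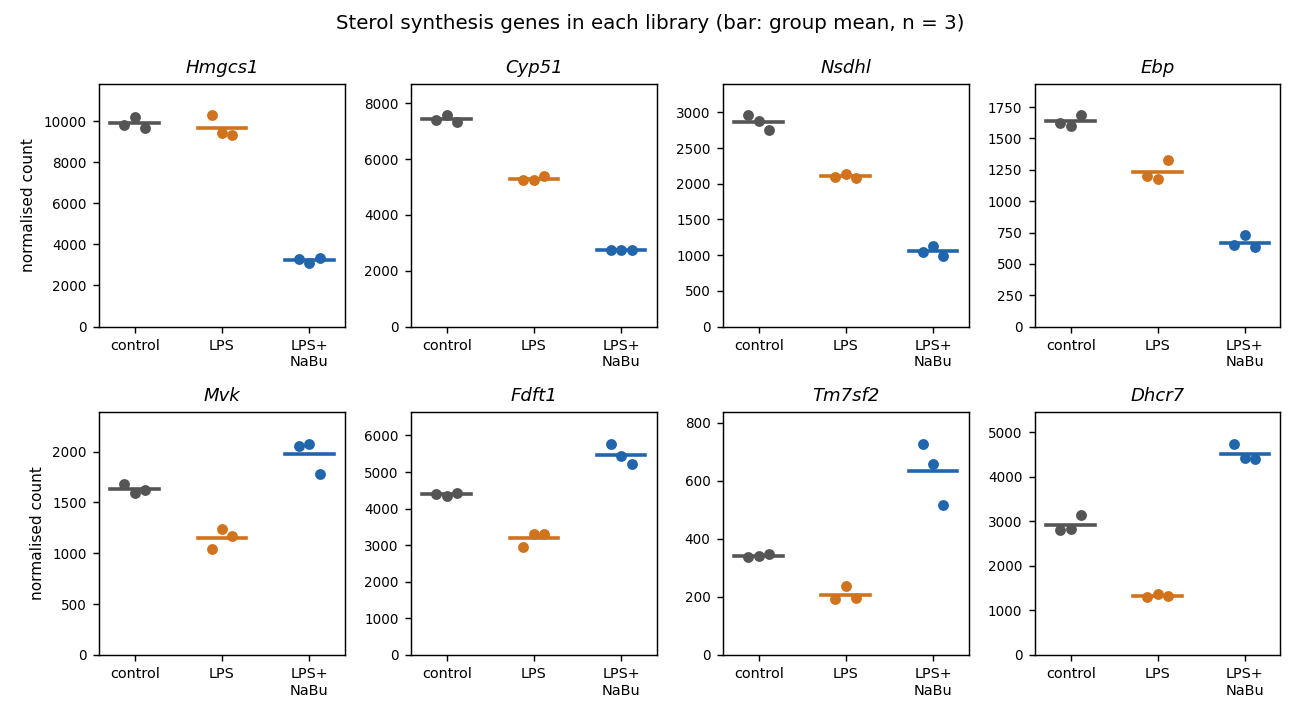
Normalised count (vertical axis, from 0) of 8 sterol synthesis genes in each of the 9 libraries, one point per library, with bars at the group means of 3 libraries (control grey, LPS orange, LPS+NaBu blue). Hmgcs1, Cyp51, Nsdhl and Ebp in the upper row have their lowest 3 values with LPS+NaBu, and Mvk, Fdft1, Tm7sf2 and Dhcr7 in the lower row have their highest 3 there.

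Among the SREBP regulators, the messages of the factors themselves moved by at most 1.41-fold between groups. Srebf2, which encodes the SREBP that drives most sterol enzymes, read 17914, 17487 and 18666 in control, 16216, 15945 and 15496 with LPS, and 15848, 15096 and 13900 with LPS+NaBu. It fell by 0.18 on the log2 scale with LPS (adjusted p = 0.00817) and by 0.27 with LPS+NaBu against control (adjusted p = 0.000295). From LPS to LPS+NaBu its change was -0.09 ± 0.05 (adjusted p = 0.123) and turned to 0.19 (adjusted p = 0.00223) under scaling to the same sum and to 0.29 (adjusted p = 6.26e-05) under quantile normalisation. Srebf1, which encodes the SREBP forms tied more to fatty acid synthesis and is itself an LXR target, fell 1.41-fold with LPS (from 9366, 9087 and 9418 to 6467, 6781 and 6488, adjusted p = 1.07e-06). It rose 1.19-fold with NaBu to 8258, 7871 and 7382 (adjusted p = 0.000274), still below control (log2 change -0.25, adjusted p = 0.000339).

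Scap and Insig2 both had their highest values with LPS+NaBu. Scap, the escort, read 2927, 3008 and 3177 in control, 2446, 2498 and 2594 with LPS, and 3759, 3565 and 3483 with LPS+NaBu, a fall of 0.27 on the log2 scale with LPS (adjusted p = 0.000445) and a rise of 1.43-fold over LPS with NaBu (0.52 ± 0.05, adjusted p = 5.66e-07). The anchor genes had unlike values, a difference that was not tested. Insig2, the form not driven by SREBP in the classical scheme, read 1148, 1085 and 1094 in control, 1370, 1311 and 1319 with LPS, and 2604, 2647 and 2734 with LPS+NaBu, 2.0-fold higher than LPS (1.0 ± 0.05, adjusted p = 9.61e-10) and 2.4-fold higher than control (adjusted p = 1.04e-10). Its smaller rise with LPS (0.27, adjusted p = 0.0007) was lost under scaling to the same sum (adjusted p = 0.553).

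Insig1, an SREBP target that closes the feedback loop, read 5522, 5651 and 5100 in control, 4805, 4612 and 4173 with LPS, and 5392, 4912 and 4751 with LPS+NaBu. It fell with LPS (log2 change -0.26 ± 0.06, adjusted p = 0.00374). Its change of 0.15 ± 0.06 from LPS to LPS+NaBu missed the threshold (adjusted p = 0.0507) with overlapping libraries, and was called higher in 10 of 21 other analyses, with adjusted p from 4.73e-05 to 0.532. Per exon length Insig1 was the more abundant anchor in control, at 1111 ± 59.0 (SD, n = 3) normalised counts per kb against 187 ± 5.73 for Insig2. With LPS+NaBu the levels were 1028 ± 68.3 and 449 ± 11.2 per kb.

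**Figure D3:**
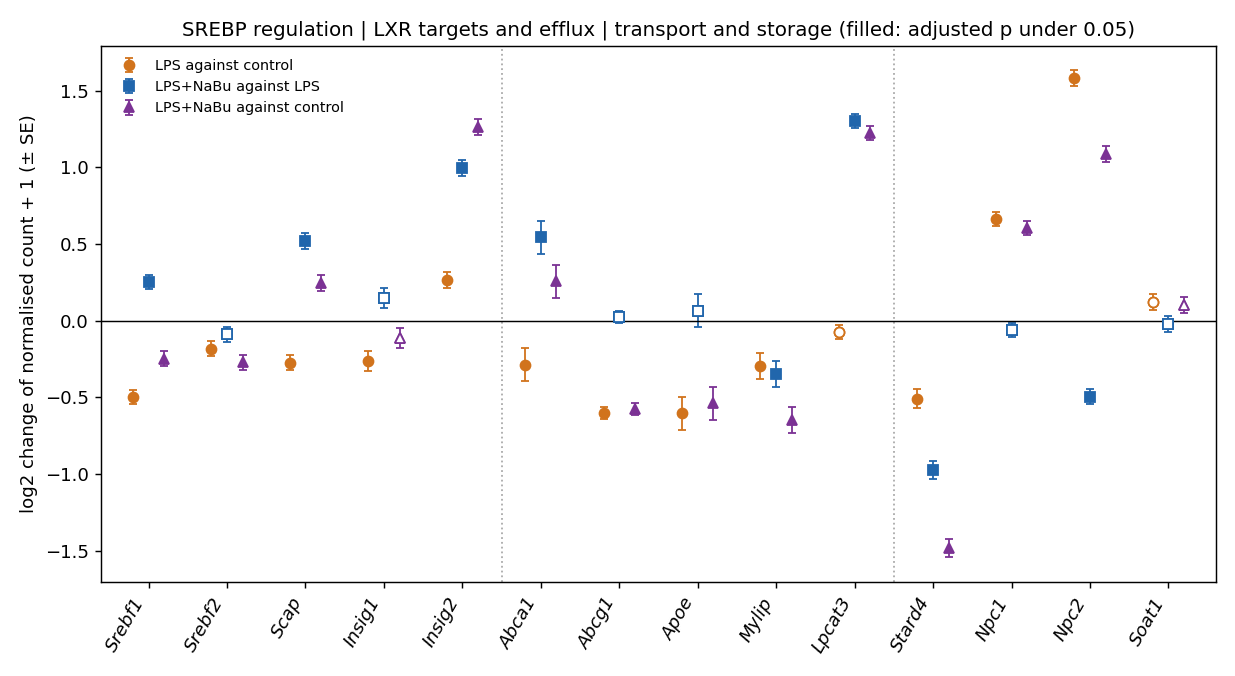
Log2 change of the normalised count + 1 (vertical axis, ± SE) of the 14 tested regulation and handling genes for the same 3 comparisons and symbols (orange circles LPS against control, blue squares LPS+NaBu against LPS, purple triangles LPS+NaBu against control), open where the adjusted p was 0.05 or above. Insig2 and Lpcat3 stand highest with NaBu, Npc2 rises 1.58 with LPS, and Stard4 is lowest. The blue squares of Srebf2, Npc1 and Soat1 turn above 0 under scaling to the same sum and under quantile normalisation, and that of Npc2 turns to 0.0081 under quantile normalisation.

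Of the LXR targets and efflux genes, 4 of 5 fell with LPS, beside 30.8% of all tested genes. Abcg1, which exports cholesterol to high-density lipoprotein, fell 1.52-fold, from 12358, 12251 and 12031 to 7923, 7852 and 8373 (log2 change -0.60 ± 0.04, adjusted p = 2.96e-08). With LPS+NaBu it read 8166, 8269 and 8143, within the range of the LPS libraries (log2 change 0.03 ± 0.04, adjusted p = 0.56) and 1.49-fold below control (adjusted p = 1.82e-08). Apoe, the lipoprotein component that accepts the cholesterol, had the same pattern at a low level, 371, 399 and 347 in control, 233, 270 and 232 with LPS and 243, 270 and 254 with LPS+NaBu. It fell 1.52-fold with LPS (adjusted p = 0.00037), and its change from LPS to LPS+NaBu was 0.07 ± 0.11 (adjusted p = 0.592). Under scaling to the same sum Abcg1 and Apoe were both called higher with LPS+NaBu than with LPS.

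Abca1, which loads cholesterol onto lipid-poor apolipoprotein, had the widest spread within a group. It read 2356, 2488 and 2199 in control, 2312, 1588 and 1932 with LPS, and 2653, 2731 and 3033 with LPS+NaBu, and the SD of its LPS libraries was 18.6% of their mean. It rose 1.44-fold from LPS to LPS+NaBu (log2 change 0.54 ± 0.11, adjusted p = 0.000451), and these groups did not overlap. Its fall with LPS (-0.29 ± 0.11, adjusted p = 0.0377) came with overlapping libraries and was lost in 9 of 21 other analyses (adjusted p from 0.00139 to 0.148), including those without control library 1 or 2, LPS library 2 or 3, or LPS+NaBu library 2. Its rise over control with LPS+NaBu (0.26 ± 0.11, adjusted p = 0.0454) was lost in 10 of 21 (0.00321 to 0.154), including those without control library 1 or 3, LPS library 3 or any of the 3 LPS+NaBu libraries. Abca1 and Abcg1 thus had unlike values with NaBu, 1 called higher than LPS and 1 not called, and the difference between these changes was not tested.

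Lpcat3, an LXR target that places polyunsaturated chains in membrane phospholipids, was the regulation or handling gene that rose most with NaBu. It read 3048, 3036 and 3192 in control, 2940, 2988 and 2867 with LPS, and 7342, 7430 and 6900 with LPS+NaBu, a rise of 2.46-fold over LPS (log2 change 1.30 ± 0.05, adjusted p = 1.89e-11) and 2.34-fold over control (adjusted p = 3.89e-11). With LPS its change was -0.08 ± 0.05 (adjusted p = 0.175), although the libraries did not overlap, and it was called lower under scaling to the same sum and quantile normalisation. Lpcat3 (chromosome 6, 124639765 to 124684440, GRCm39) shares 53.8% of its annotated exon bases with Emg1 on the other strand. If counting did not use strand, their reads were not told apart there. Emg1 fell with NaBu over LPS, with means of 7066 and 2682 (log2 change -1.40, adjusted p = 1.31e-10).

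Mylip, which encodes the LXR-induced ligase that marks lipoprotein receptors for degradation, fell at each step instead. It read 978, 998 and 972 in control, 833, 739 and 832 with LPS, and 582, 602 and 707 with LPS+NaBu. It fell by 0.30 on the log2 scale with LPS (adjusted p = 0.00913) and by 0.35 from LPS to LPS+NaBu (adjusted p = 0.00196), the latter lost when libraries were scaled to the same sum. LPS+NaBu was 1.56-fold below control (adjusted p = 1.17e-05). The 5 LXR and efflux genes thus held every pattern with NaBu over LPS: Abca1 and Lpcat3 higher, Mylip lower, and Abcg1 and Apoe in neither direction. Over all tested genes 40.2% were called higher and 37.8% lower.

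Of the transport and storage genes, those of the lysosome rose with LPS. Npc2, which carries cholesterol freed in the lysosome to the membrane protein NPC1, read 14505, 14056 and 14873 in control, 42547, 46343 and 41259 with LPS, and 31411, 31530 and 29349 with LPS+NaBu. It rose 3.0-fold with LPS (log2 change 1.58 ± 0.05, adjusted p = 2.42e-11), the largest rise of any member in that comparison. It was lower by 0.49 on the log2 scale with LPS+NaBu than with LPS (adjusted p = 1.18e-06), a change that became 0.0081 (adjusted p = 0.852) under quantile normalisation. Npc2 (chromosome 12, 84801334 to 84820617, GRCm39) had the highest level per exon length of the members, 2361 ± 66.7 normalised counts per kb in control and 7076 ± 431 with LPS (SD, n = 3). It shares 9.67% of its exon bases with Isca2 on the other strand. Isca2 also rose with LPS, from a mean of 711 to 1382 (log2 change 0.96, adjusted p = 3.03e-07).

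Npc1, the membrane partner of Npc2, rose 1.59-fold with LPS, from 4508, 4794 and 4681 to 7722, 7018 and 7446 (log2 change 0.67 ± 0.05, adjusted p = 5.65e-08). With LPS+NaBu it read 6924, 7269 and 7070, which overlapped LPS (-0.06 ± 0.05, adjusted p = 0.25) and was 1.52-fold above control (adjusted p = 5.87e-08). Stard4, a soluble carrier of cholesterol between membranes and an SREBP target, went the other way. It read 4349, 4732 and 4354 in control, 3363, 3004 and 3084 with LPS, and 1498, 1635 and 1675 with LPS+NaBu, 1.42-fold lower with LPS (adjusted p = 1.06e-05), a further 1.97-fold lower with NaBu (-0.97 ± 0.06, adjusted p = 6.4e-09) and 2.79-fold below control (adjusted p = 1.06e-10). Its 3 groups formed the same separate steps as Cyp51, Nsdhl and Ebp.

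Soat1, which esterifies cholesterol for storage in droplets, passed in no comparison. It read 10639, 11284 and 10717 in control, 12243, 11148 and 12188 with LPS, and 11463, 11278 and 12297 with LPS+NaBu, with log2 changes of 0.12 ± 0.05 with LPS (adjusted p = 0.0535), -0.02 ± 0.05 from LPS to LPS+NaBu (adjusted p = 0.704) and 0.10 ± 0.05 against control (adjusted p = 0.0838). The LPS change was called higher in 7 of 21 other analyses, among them those without control library 2, LPS library 2 or LPS+NaBu library 3 (adjusted p from 0.0106 to 0.165 over all 21). Ch25h, the cholesterol hydroxylase known as an interferon-induced gene of macrophages, was barely seen. It had 12 reads in LPS library 1, 6 in LPS library 2 and 0 in the other 7 libraries, where a count of 0 allows up to 3 reads, or 2.06 to 4.24 normalised counts, for counting error only. It was below the minimum for testing, and no change is given.

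**Figure D4:**
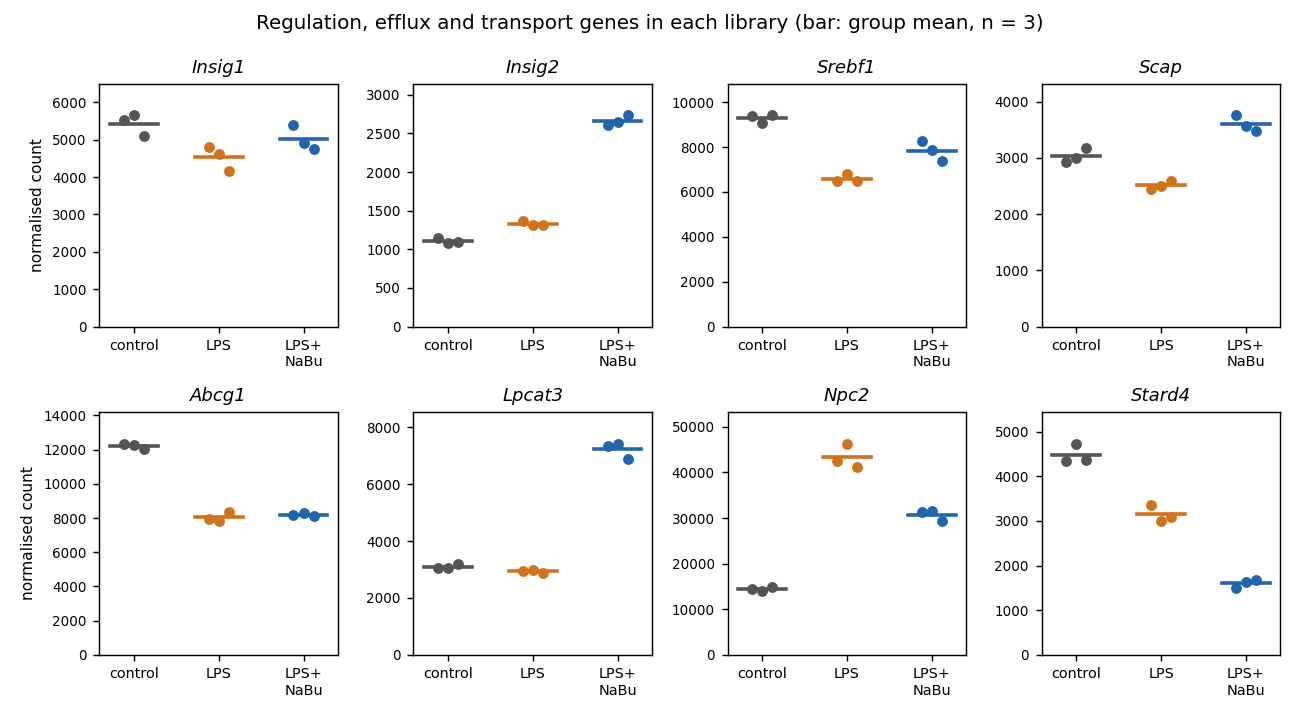
Normalised count (vertical axis, from 0) of 8 regulation, efflux and transport genes in each of the 9 libraries, one point per library, with bars at the group means of 3 libraries (control grey, LPS orange, LPS+NaBu blue). Insig2 and Lpcat3 have their 3 highest values with LPS+NaBu, Npc2 with LPS and Abcg1 in control, while Stard4 steps down from control to LPS+NaBu.

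Sorted by their calls in the 3 comparisons, 8 members were lower at each step (Acat2, Idi1, Lss, Cyp51, Nsdhl, Ebp, Mylip and Stard4). Another 7 were lower with LPS and then higher with LPS+NaBu than in either other group (Mvk, Pmvk, Fdft1, Tm7sf2, Dhcr7, Scap and Abca1). A further 4 were lower with LPS and not called between LPS and LPS+NaBu, while still below control (Fdps, Srebf2, Abcg1 and Apoe). Mvd and Srebf1 fell with LPS and rose part of the way back, and Hmgcs1 and Sc5d fell with NaBu only by these calls. The remaining 8 tested members each had a pattern of their own. Some patterns rest on calls that other analyses lost. Abca1 lost its fall with LPS in 9 of 21 and its rise over control in 10 of 21. Acat2, Idi1, Lss and Mylip lost the fall from LPS to LPS+NaBu at the same sum. These patterns join comparisons that share libraries and are a description. How many of all tested genes have each pattern was not counted, so the pattern counts are no result about the members. Replicates were close: the SD was 3.99% of the group mean in the median over members and groups.

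Genes around the same pathways were counted in lists, each to be read against the shares of all tested genes. Those shares were 25.2% higher and 30.8% lower for LPS over control, 40.2% and 37.8% for LPS+NaBu over LPS, and 40.9% and 35.1% for LPS+NaBu over control. A list's count near its share is no result about the list. At the same sum, 2266 of all 14787 genes tested rose and 7078 fell with LPS over control. For LPS+NaBu over LPS at the same sum, 7431 rose and 4128 fell. Of 14 tested SREBP targets of fatty acid synthesis, 13 fell with LPS, beside 30.8% of all genes, with a median log2 change of -0.66 against -0.05 over all genes. With LPS+NaBu against LPS 7 rose and 6 fell, not far from the 40.2% and 37.8% of all genes. Lpin1, a phosphatidate phosphatase, fell from 1046 ± 47.8 (SD, n = 3) in control to 274 ± 13.9 with LPS (log2 change -1.93 ± 0.07, adjusted p = 5.32e-11) and reached 1951 ± 37.7 with LPS+NaBu (2.83 ± 0.07 over LPS, adjusted p = 6.82e-13). Fasn, fatty acid synthase, went from 41746 ± 1984 in control and 24318 ± 726 with LPS to 4558 ± 81.1 with LPS+NaBu (-2.41 ± 0.04 against LPS, adjusted p = 8.75e-14, and -3.19 ± 0.04 against control). Acss2, which makes acetyl-CoA from acetate, stood at 5736 ± 96.8 with LPS+NaBu against 1538 ± 73.7 in control (log2 change 1.90 ± 0.05, adjusted p = 3.73e-12). Against control 5 of these genes were higher and 8 lower with LPS+NaBu, beside 40.9% and 35.1% of all genes. At the same sum 8 rose and 4 fell with LPS+NaBu against LPS.

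Of 12 genes of SREBP processing and sterol sensing, 3 rose and 4 fell with LPS, 5 rose and 6 fell with LPS+NaBu against LPS, and 4 rose and 5 fell against control. The counts with LPS lie near the 25.2% and 30.8% of all genes, and those with LPS+NaBu stand beside 40.2% and 37.8% over LPS and 40.9% and 35.1% over control. Tmem97, the sterol-responsive sigma receptor, fell from 4789 ± 97.4 in control to 2907 ± 136 with LPS and 1146 ± 80.8 with LPS+NaBu (SD, n = 3; log2 change -1.34 ± 0.06 for the second step, adjusted p = 1.59e-10). Paqr3, a Golgi anchor of SCAP and SREBP, rose to 950 ± 50.7 with LPS+NaBu from 183 ± 15.6 with LPS (2.38 ± 0.11, adjusted p = 2.18e-10) and was at 286 ± 30.3 in control. At the same sum 7 genes of this list fell with LPS, and 6 rose and 4 fell with LPS+NaBu against LPS.

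Of 8 genes of LXR, RXR and their cofactors, 2 rose and 3 fell with LPS, 3 rose and 3 fell with LPS+NaBu against LPS, and 4 rose and 4 fell against control. In so short a list the counts lie near the shares of all genes, 25.2% and 30.8%, 40.2% and 37.8%, and 40.9% and 35.1% in that order. Nr1h3, which encodes LXR alpha, read 396 ± 56.8 in control cells, 393 ± 14.0 with LPS and 105 ± 12.5 with LPS+NaBu (SD, n = 3), a log2 change of -1.90 ± 0.13 from LPS (adjusted p = 1.65e-08). With LPS, Rxra fell by 0.62 on the log2 scale (adjusted p = 2.31e-06) and Ncoa5, a coactivator, rose by 0.35 (adjusted p = 1.26e-05). Of 5 tested further LXR targets, 2 fell with LPS, beside 30.8% of all genes, and 2 rose and 1 fell with LPS+NaBu against LPS, beside 40.2% and 37.8%. Of the pair that fell with LPS, 1 was called without control library 3 and with edgeR on the recovered reads, and neither without LPS library 3. Lpl, lipoprotein lipase, fell with NaBu from 150707 ± 6715 to 37473 ± 4289 (-2.01 ± 0.11, adjusted p = 1.04e-09), and Arl4c was called higher but at a low level, 38.0 ± 14.3 against 1.61 ± 1.45. Pltp, a phospholipid transfer protein, fell by 0.23 on the log2 scale with LPS (adjusted p = 0.0102), a call lost without LPS library 3 (adjusted p = 0.051). At the same sum, 5 of the 8 receptor and cofactor genes rose and 2 fell with LPS+NaBu against LPS.

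Of 15 genes of uptake, ester hydrolysis and transfer, 7 rose and 6 fell with LPS, where 25.2% and 30.8% of all genes did. In this list 3 rose and 10 fell with LPS+NaBu against LPS, beside 40.2% and 37.8%, and 4 rose and 10 fell against control, beside 40.9% and 35.1%. Msr1, a scavenger receptor, rose from 12209 ± 208 to 36871 ± 1415 with LPS and stood at 965 ± 47.9 with LPS+NaBu (log2 change -5.25 ± 0.05 from LPS, adjusted p = 2.5e-16). Lipa, the lysosomal acid lipase, fell by 0.92 on the log2 scale with LPS (adjusted p = 3.62e-10), and Osbp, an oxysterol-binding transfer protein, rose by 0.99 with NaBu over LPS (adjusted p = 1.2e-10). All 4 tested genes of oxysterol metabolism and sensing fell with LPS, beside 30.8% of all genes. With LPS+NaBu against LPS 3 of them rose and 1 fell, beside 40.2% and 37.8%. Against control 1 rose and 3 fell with LPS+NaBu, beside 40.9% and 35.1%. The count that rose over LPS was 2 under some alternatives, among them quantile normalisation, edgeR on the recovered reads and leaving out any LPS+NaBu library. Gpr183, an oxysterol receptor, read 2575 ± 62.6 in control cells, 811 ± 79.1 with LPS and 63.2 ± 8.55 with LPS+NaBu, and Sult2b1, a sterol sulfotransferase, 38.0 ± 5.06, 5.18 ± 2.63 and 77.7 ± 16.2. The call of Sult2b1 as higher with LPS+NaBu than in control (adjusted p = 0.017) was lost under quantile normalisation and without control library 3, LPS+NaBu library 1 or LPS+NaBu library 2 (adjusted p = 0.0523 to 0.368). At the same sum, 6 uptake, hydrolysis and transfer genes rose and 9 fell with LPS, and 5 rose and 8 fell with LPS+NaBu against LPS.

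The isoprenoid branch, which uses farnesyl diphosphate for prenyl groups, dolichol and ubiquinone, had 5 of 11 genes higher and 3 lower with LPS, 3 higher and 6 lower with LPS+NaBu against LPS, and 4 higher and 7 lower against control. Over all genes the shares were 25.2% and 30.8%, 40.2% and 37.8%, and 40.9% and 35.1% in that order, and the 3 of 11 lower with LPS lie near theirs. Dhdds, of dolichol synthesis, rose from 2715 ± 185 with LPS to 5589 ± 239 with LPS+NaBu (SD, n = 3; log2 change 1.04 ± 0.06, adjusted p = 1.74e-09). Pdss1, of ubiquinone synthesis, was at 319 ± 26.1 with LPS+NaBu against 650 ± 28.4 in control (-1.03 ± 0.09, adjusted p = 1.8e-07), and Rabggtb, a prenyltransferase subunit, fell by 0.74 from LPS to LPS+NaBu (adjusted p = 1e-08). With LPS, Ggps1 rose by 0.59 (adjusted p = 6.35e-05) and Fntb fell by 0.50 (adjusted p = 0.000223) on the log2 scale. At the same sum 2 genes of the branch rose and 5 fell with LPS, and 5 rose and 5 fell with LPS+NaBu against LPS.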

How the data were processed

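RNA of 9 RAW264.7 libraries, 3 control, 3 LPS and 3 LPS+NaBu, was grouped by the titles in the labels. The study's methods describe trimming with Trimmomatic, alignment with HISAT2 and counting with featureCounts, while the processing notes of the submitters list mm39, DESeq2 and STAR 2.7.7a, so the aligner is uncertain. The study's methods name a directional library protocol. Whether counting used strand is not given in these sources, so genes that overlap may share reads. Overlaps of members not named above include Nsdhl with Cetn2 (8.97% of its exon bases), Npc1 with Rmc1 (9.52%) and Sqle with Washc5 (5.29%), each on the other strand. The signal the authors deposited is named FPKM, but it is a gene count divided by 1 size factor per library: in each library 100% of values were whole multiples of the worth of 1 read, within 0.001, which says little in the 3 libraries where that worth lies within 1% of 1. A median-of-ratios size factor computed from the recovered reads matched the reciprocal of that worth in each of the 9 libraries, at a ratio of 1.000. The signal is not divided by length, so levels of different genes were compared only per kb of merged exons (GENCODE release M39, GRCm39).

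Genes with at least 10 in at least 3 libraries (14808 of 43629) were tested as log2(normalised count + 1), which understates the changes of low genes, with limma 3.58.1 in R 4.3.3 (a mean per group over all 9 libraries, intensity trend, two-sided). P-values were adjusted by Benjamini-Hochberg over all genes tested, and calls were made under an adjusted p of 0.05. The planned test was kept although the files hold another unit than FPKM. The scripts were tested on simulated data. Alternatives were 2 other pseudocounts, 2 other filters, 2 other scalings, edgeR 4.0.16 and DESeq2 1.42.0 on the recovered reads, limma on variance-stabilised reads, without the trend or over 6 libraries, a replicate block, and each library left out. The members and the other gene and marker lists were chosen with earlier results of these data known. All 32 members are named, and of each other list the called gene with the largest rise and the largest fall in each comparison, some of which are not reported here. Promoter windows come from RefSeq (GRCm38.p6).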

Additional observations from a re-analysis of the deposited data

How the results depend on the processing

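Over 21 alternatives, 1877 of 1953 member values kept their direction and their side of the threshold, with changes of sign between values that passed under neither setting counted among them. Scaling moved most: at the same sum, the LPS+NaBu against LPS changes of Fdps, Srebf2, Npc1 and Soat1 turned to 0.19, 0.19, 0.22 and 0.25, and those of Acat2 and Lss to 0.026 and 0.0075, which follows from the added shift of 0.28. Under quantile normalisation Srebf2, Npc1 and Soat1 turned to 0.29, 0.15 and 0.31 and Npc2 to 0.0081. In that comparison sterol synthesis genes called lower went from 8 to 5 at the same sum, and regulation and handling genes called higher from 5 to 11 at the same sum and 10 under quantile normalisation. Over all tested genes, 5956 higher and 5602 lower became 7431 and 4128 at the same sum and 5886 and 6030 under quantile normalisation. Regulation and handling genes called lower went from 3 to 6 with edgeR, where the cause was not tested. On the recovered reads edgeR called 4108 genes higher and 4160 lower with LPS, 5455 and 6166 with LPS+NaBu against LPS, and 5749 and 5585 with LPS+NaBu against control. The 1 sterol synthesis gene called higher with LPS, Hsd17b7, gave 0 at the same sum, under quantile normalisation and without the trend, and 0 to 1 with a library left out. No pairing of libraries by replicate number was seen: deviations of same-numbered libraries correlated at -0.0444 to 0.0202 over 9 pairs, and those of the other 18 pairs at -0.0686 to 0.0761. These values cannot tell whether same-numbered cultures were handled together. The replicate block left 14 sterol synthesis genes lower with LPS (all genes 3577 higher and 4400 lower, against 3739 and 4568 without it), called Insig1 higher with LPS+NaBu against LPS, and lost Abca1 with LPS+NaBu against control. Among the named genes of other lists, calls of Sult2b1 and Pltp were lost under some alternatives. With 3 libraries a group and member SEs of 0.04 to 0.13 on the log2 scale, changes near those sizes cannot be told from 0.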

Other observations

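Among the members, libraries of a group did not take an equal share of its extremes. The same was not counted over all tested genes, so these counts are no result about the members. Of the 31 tested members, LPS+NaBu library 3 held the lowest of the 3 values for 17, among them 10 of the 17 sterol synthesis genes, and LPS+NaBu libraries 1 and 2 held it for 7 each. In the control group the lowest value fell to libraries 1, 2 and 3 for 8, 12 and 11 members, and in the LPS group for 8, 12 and 11. The highest value fell to libraries 1, 2 and 3 for 6, 12 and 13 members in the control group. In the LPS group it fell to them for 14, 11 and 6, and in the LPS+NaBu group for 12, 11 and 8.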
